A study of Mus musculus with 2 samples.

Results

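The Janus kinases (JAKs) Jak1, Jak2, Jak3 and Tyk2 and the signal transducers and activators of transcription (STATs) Stat3, Stat4, Stat5a, Stat5b and Stat6 were examined in naive CD8+ T cells with and without the zinc-finger transcription factor Bcl11b. Every gene spot whose design name was 1 of these 9 symbols was taken on each array. They came to 36 of 43379 gene spots, or 18 of 41174 probes, and all 9 genes were among the 9273 genes tested. The knockout cells came from Bcl11bF/F/dLck-iCre mice, in which iCre under the distal Lck promoter, active late in T cell development, excises floxed Bcl11b alleles. Cells of the other genotype came from wild type mice, and both genotypes had the C57BL/6 background. Cells with low CD44 and low CD25 were sorted to a purity above 90%, per the labels. The animals' ages and numbers and any pooling are not given there, nor whether the wild type mice carried floxed alleles or a recombinase. On each of 2 two-colour arrays a Cy5-labelled knockout sample was hybridised together with a Cy3-labelled wild type sample, and the labels give the arrays as biological replicates 1 and 2.

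JAKs are tyrosine kinases bound to the inner tails of cytokine receptors. When a cytokine draws the receptor chains together, the kinases phosphorylate each other, the receptor and then STAT proteins, which pair up, enter the nucleus and bind DNA. In naive CD8+ T cells interleukin-7 (IL-7) and IL-15 act through Jak1, Jak3 and the STAT5 proteins, and the pathway is known for its part in survival and homeostatic division. An mRNA array does not measure phosphorylation, so the values below are transcript levels and not pathway activity.

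Stat5a and Stat5b encode closely related proteins and are neighbours on chromosome 11. They follow each other in the RefSeq gene table of GRCm38.p6, and Stat3 comes next. RefSeq promoter windows were found for all 9 genes, 12 windows in all, 1 for each annotated start. Of 63 pairs of windows from different genes, compared over the 250 bases before the start, the pair with the best ungapped shared stretch was Stat5a start 2 with Stat5b start 2. They share a stretch of 55 bases with 49 identical (89.1%), which begins 66 bases before the Stat5a start and 57 bases before the Stat5b start. The next pair, Stat5a start 1 with Stat5b start 2, shares 21 bases with 18 identical. The 2 sequences are shown to let a reader see what the upstream regions of these paralogs share. They run 5′ to 3′ over the 120 bases before each start, RefSeq sequence of GRCm38.p6, at chr11:100860364-100860483 (plus strand) and chr11:100822571-100822690 (minus strand), with the shared stretch in capitals. Both windows lie inside the annotated gene spans, and no transcript models were used here to say whether they are exonic in another transcript.
Stat5a start 2: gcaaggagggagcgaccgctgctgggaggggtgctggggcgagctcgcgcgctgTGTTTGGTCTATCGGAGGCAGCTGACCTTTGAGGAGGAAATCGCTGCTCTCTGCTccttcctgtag
Stat5b start 2: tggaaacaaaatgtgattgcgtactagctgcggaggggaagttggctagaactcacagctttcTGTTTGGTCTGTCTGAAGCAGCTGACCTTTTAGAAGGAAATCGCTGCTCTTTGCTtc
The 250-base windows were also searched for TTCNNNGAA, the palindrome that most STATs recognise (it reads the same on both strands). None of the 12 windows held these letters, against 7.02% of 32851 windows of all genes.

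The precision of every value was limited by the number of arrays. Gene spots that the scanner software called well above background numbered 17276 for the knockout and 10739 for wild type on array 1, and 10955 for the knockout and 13446 for wild type on array 2. Ratios spread more widely on array 1, with an SD over genes of 1.01 on the log2 scale against 0.41 on array 2. No array had the dyes swapped, so genotype and any gene-specific dye bias cannot be told apart. Bcl11b itself had log2 ratios of knockout over wild type of -1.45 and -1.73 (mean -1.59 ± 0.19, SD, n = 2), which did not pass the test (limma, adjusted p = 0.075). It passed without background correction and with a filter asking for signal in both genotypes on both arrays (adjusted p = 0.039 each), and its mean was -0.71 with median centring. Alpha beta T cell and CD8 markers were well above background for 14 of 14 genes on both arrays in the knockout, and for 12 and 13 of 14 in wild type. Where a bulk value differs, fewer cells of a type and less RNA per cell cannot be told apart.

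None of the 9 genes passed the test in either direction, and none had an unadjusted p under 0.05 (limma across 9273 genes, Benjamini-Hochberg adjustment, threshold 0.05). Of all genes tested, 1.24% were called higher and 0.248% lower in the knockout, and 904 had an unadjusted p under 0.05. Mean log2 ratios of the members ran between -0.43 for Jak3 and 0.83 for Stat3, with a median of 0.37 against 0.04 for all genes. Jak1, Jak2, Tyk2, Stat4 and Stat6 were above 0 on both arrays (5 of 9, against 30.9% of all genes). Jak3 was below 0 on both (30.8% of all genes), and Stat3, Stat5a and Stat5b had opposite signs (38.2%). These signs depend on the scaling: when loess was replaced by median centring, all 9 members were above 0 on both arrays, against 64.9% of all genes, and the mean of Jak3 turned to 0.30. Every gene shared a standard error of 0.50, so a mean ratio had to reach 1.68 in size to pass. The 95% intervals of the members, built on this shared error, all span 0 and leave room for moderate differences. They run from -1.40 to 0.55 for Jak3 and from -0.14 to 1.80 for Stat3. A gene's own spread does not enter them, and both array ratios of Stat3, 1.95 and -0.29, lie outside its interval. For Stat3 the interval thus understates the uncertainty.

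**Figure D1:**
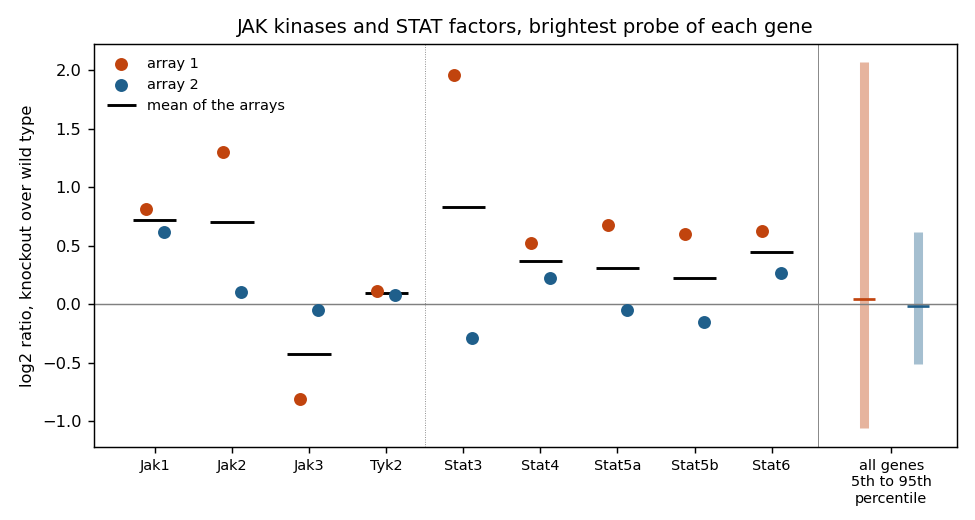
Log2 ratio of knockout over wild type for each member on array 1 (orange) and array 2 (blue), from the brightest kept probe, with the mean as a black line. The bars at the right span the 5th to 95th percentile of all 9273 genes on each array. The points of Jak1 and Tyk2 lie close together, whereas those of Stat3 are 2.25 apart.

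The members lay further from 0 on array 1. There 8 of 9 members were above 0 (51.9% of all genes), with a median of 0.63 against 0.05 for all genes. On array 2, 5 of 9 were above 0 (48.2% of all genes), with a median of 0.08 against -0.01. Jak2 and Stat3 were over 2-fold higher in the knockout on array 1, where 21.1% of all genes were. No member was over 2-fold higher on array 2 (1.96% of all genes). The arrays' ratios lay 0.73 apart for the median member and 0.54 apart for the median gene.

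Jak1 pairs with many receptors, among them those of the common gamma chain, gp130 and interferon families. Its brightest probe, on chr4:100650421-100650480 (mm8, minus strand), had spot signals of 53876 and 112076 in the knockout samples of arrays 1 and 2. The wild type samples on the same arrays had 8138 and 26334. These intensities hold the difference between the dyes, which the loess step removes, so the comparison is the ratio after that step and not the raw pair. The log2 ratios were 0.82 and 0.62, a mean of 0.72 ± 0.14 (SD, n = 2) or 1.64-fold (adjusted p = 0.750, limma). Jak1 was thus above 0 on both arrays, with arrays closer together than for the median gene. A second Jak1 probe, on chr4:100651121-100651180, had ratios of 1.77 and 0.18.

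The remaining Jak1 probe, probe 3, did not move with these. It lies on chr4:100654397-100654456 on the plus strand, opposite to the others, and the design names it through a cDNA clone and lists no RefSeq transcript for it. Its signals were 1335 and 3468 in the knockout samples and 2226 and 2087 in the wild type samples. The log2 ratios were -2.11 and -0.23, a mean of -1.17 ± 1.33 (SD, n = 2; adjusted p = 0.374 in limma's fit to all 11833 kept probes). The sign was negative on both arrays, against positive ratios of both minus-strand probes on both arrays. On array 1 its knockout signal lay near that of negative control spots, whose median was 985. On array 2 its raw knockout signal was above the wild type one, so that sign rests on the dye correction. Averaging the 3 probes gives Jak1 a mean ratio of 0.17.

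Jak2 serves receptors such as those of interferon-gamma and IL-12, where it works beside Jak1 or Tyk2. Its main probe, on chr19:29377868-29377927 (plus strand), had signals of 6186 and 4144 in the knockout samples and 1330 and 2068 in the wild type samples. The ratios were 1.30 and 0.11, a mean of 0.70 ± 0.85 (SD, n = 2; adjusted p = 0.758). The positive mean thus came almost wholly from array 1. The other Jak2 probe, on chr19:29354718-29354777, was dim, meaning not well above background, for both genotypes on each array.

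Jak3, which binds the common gamma chain and is largely limited to blood cells, was the only member with a negative mean under loess, and turned positive with median centring. Its main probe, on chr8:74619175-74619234 (plus strand), had signals of 4020 and 4125 in the knockout samples and 2394 and 2216 in the wild type samples. After loess the ratios were -0.81 and -0.05, a mean of -0.43 ± 0.54 (SD, n = 2; adjusted p = 0.913). The raw knockout signals were above the wild type ones while the ratios were below 0, so the sign of this value rests on the dye correction. The design lists this probe for transcripts of Jak3 and of its neighbour Insl3, so its signal may hold both. The second probe, on chr8:74615916-74616241, is listed for Jak3 alone. It had signals of 1970 and 3964 in the knockout samples and 1342 and 1760 in the wild type samples, and its ratios of 0.05 and 0.39 (mean 0.22 ± 0.24, SD, n = 2) had the opposite sign. No direction can therefore be given for Jak3.

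Tyk2, a kinase of the type I interferon, IL-10 and IL-12 receptors, has 1 probe, on chr9:20855279-20855338 (minus strand). Its signals were 1632 and 6011 in the knockout samples and 1277 and 2859 in the wild type samples. The ratios were 0.12 and 0.08, a mean of 0.10 ± 0.03 (SD, n = 2; adjusted p = 0.979). This mean was the nearest to 0 among the members, and the arrays lay closest together. Even so, its 95% interval runs from -0.88 to 1.07, since the fit lends every gene the same error. Its array 1 signals lay near those of negative control spots, whose medians were 985 for the knockout sample and 1087 for the wild type sample.

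**Figure D2:**
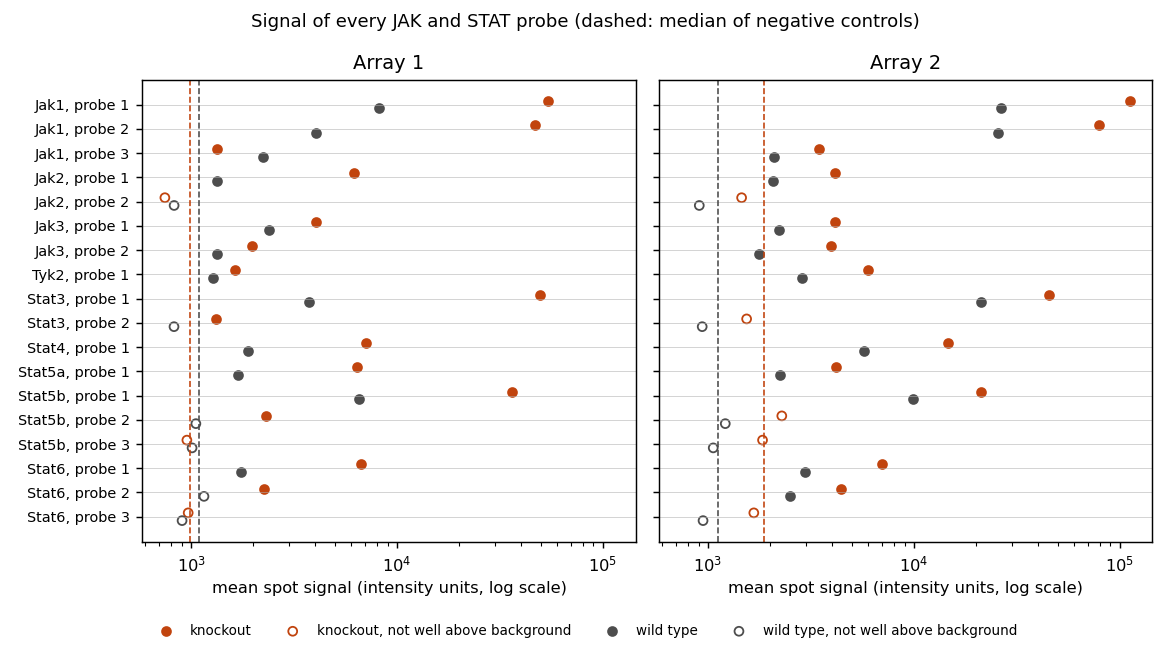
Mean spot signal of all 18 JAK and STAT probes on each array (log scale, intensity units) for knockout (orange) and wild type (grey). Open circles were not well above background, and dashed lines mark the median of negative control spots in each channel. Probe 2 of Jak2 and of Stat3 and probe 3 of Stat6 sit near or below those lines, whereas the first probes of Jak1, Stat3 and Stat5b lie well to the right of them.

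Stat3, which carries signals of IL-6, IL-10 and IL-21, had the largest mean among the members and the largest disagreement between arrays. Its main probe, on chr11:100704374-100704433 (minus strand), had mean signals of 49345 and 45456 in the knockout samples and 3742 and 21234 in the wild type samples. The knockout signals of the arrays were close, while the wild type signal on array 1 was far below that on array 2. The ratios were 1.95 and -0.29, a mean of 0.83 ± 1.59 (SD, n = 2; adjusted p = 0.654). No direction can be given, since it turns with the array.

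The Stat3 probe was printed 10 times on each array, which shows the technical spread within a hybridisation. On array 1 the spots had ratios between 1.82 and 2.12 (SD 0.11, 10 spots). On array 2 they lay between -0.32 and -0.27 (SD 0.02, 10 spots). The spots of the arrays did not overlap, so the gap between arrays was many times the spread between spots. Spots of an array share their RNA and labelling and are not replicates of the genotype. Knockout signals of the array 1 spots ran between 28378 and 76433, and wild type signals between 2638 and 4968, yet the ratio stayed within that narrow range. The other Stat3 probe, on chr11:100701238-100701297, was well above background only in the knockout on array 1 and was left out.

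**Figure D3:**
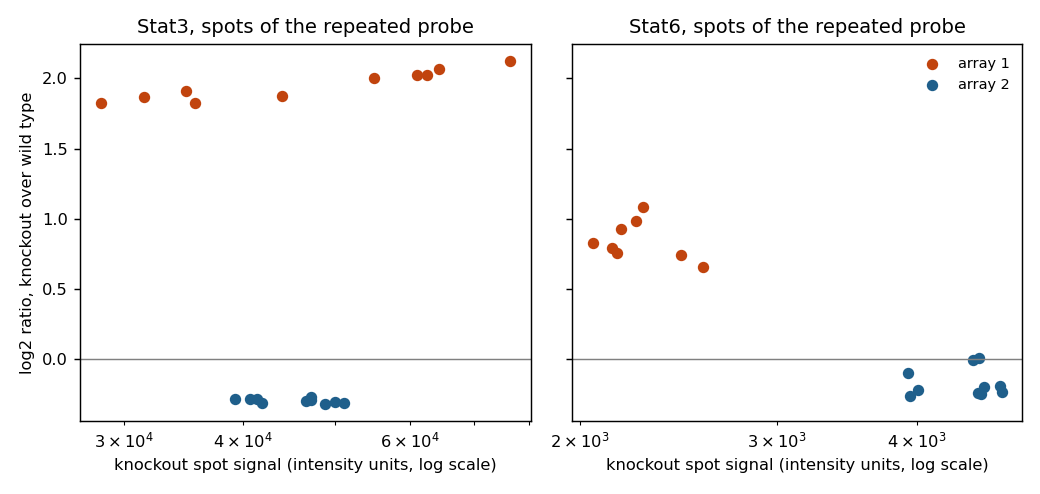
Log2 ratio of knockout over wild type for each used spot of the repeated Stat3 probe (left) and the repeated Stat6 probe (right), against the knockout signal of the spot (log scale), for array 1 (orange) and array 2 (blue). Within an array the spots form a tight band, and the bands of the arrays do not overlap.

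Stat4, which IL-12 activates and which supports interferon-gamma production, has 1 probe, on chr1:52051503-52051562 (plus strand). Its signals were 7034 and 14647 in the knockout samples and 1894 and 5691 in the wild type samples. The ratios were 0.52 and 0.23, a mean of 0.37 ± 0.21 (SD, n = 2) or 1.29-fold (adjusted p = 0.920). Both were above 0 and small against the shared error.

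Stat6, the transducer of IL-4 and IL-13, had a like pattern. Its brightest probe, on chr10:127063582-127063641 (plus strand), had signals of 6653 and 7019 in the knockout samples and 1753 and 2945 in the wild type samples. The ratios were 0.63 and 0.27, a mean of 0.45 ± 0.25 (SD, n = 2) or 1.37-fold (adjusted p = 0.911). A second probe, on chr10:127063230-127063288, was also printed 10 times. Its 8 usable spots on array 1 had ratios between 0.66 and 1.09 (SD 0.14), and its 10 spots on array 2 between -0.26 and 0.01 (SD 0.10). The averaged ratios were 0.85 and -0.17, so on array 2 the probes differed in sign. The last Stat6 probe, on chr10:127049876-127049935, was dim in both genotypes on both arrays and was left out.

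Stat5a and Stat5b carry the IL-2, IL-7 and IL-15 signal. The Stat5a probe, on chr11:100700920-100700979 (plus strand), had signals of 6384 and 4180 in the knockout samples and 1681 and 2238 in the wild type samples. Its ratios were 0.68 and -0.05, a mean of 0.31 ± 0.51 (SD, n = 2; adjusted p = 0.933). It was above 0 on array 1 and near 0 on array 2. The main Stat5b probe, on chr11:100596875-100596934 (minus strand), had signals of 36153 and 21228 in the knockout samples and 6547 and 9926 in the wild type samples. Its ratios were 0.60 and -0.15, a mean of 0.22 ± 0.53 (SD, n = 2; adjusted p = 0.953). For both genes the sign turned with the array, so no direction can be given.

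The other Stat5b probes were dim. A probe on chr11:100637496-100637555, named through a cDNA clone, was well above background only in the knockout on array 1, at 2316 against 1055 in wild type. On array 2 its signals were 2282 in the knockout and 1213 in wild type. A probe on chr11:100603430-100604478, whose 1049-base span exceeds a probe's length, was dim for both genotypes on each array. In all, 13 of the 18 probes were kept and 5 left out, and 12 of the 13 were well above background on both arrays for knockout and wild type alike. The exception was the second Stat6 probe, dim in wild type on array 1.

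**Figure D4:**
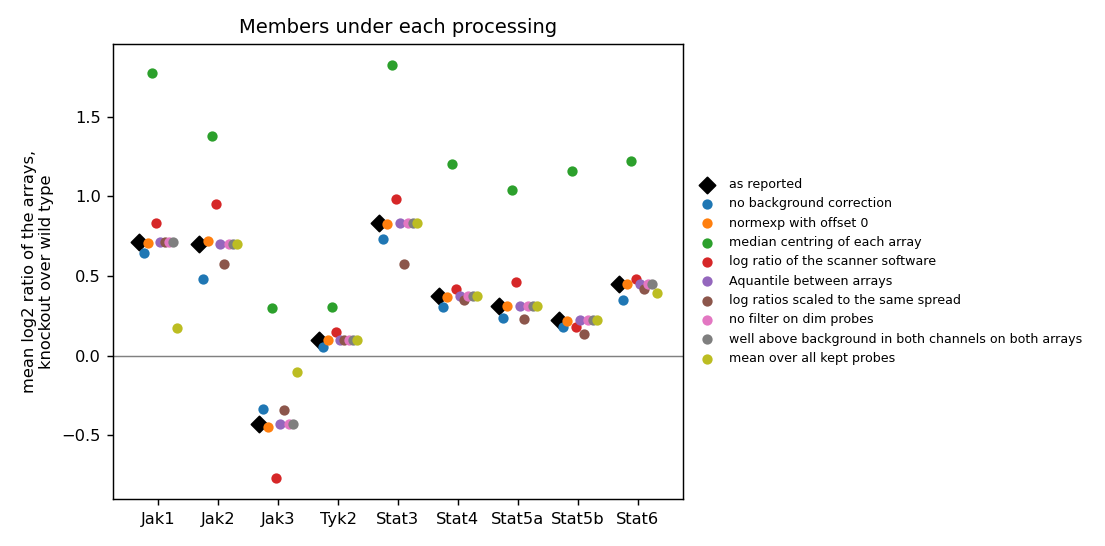
Mean log2 ratio of knockout over wild type for each member as reported (black diamonds) and under 9 other ways of processing (coloured points). Median centring (green) moves every member up, Jak3 to 0.30 and Jak1 to 1.77, and the average over probes brings Jak1 to 0.17.

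The genes around the members were described from lists. Of 36 receptors of JAK-dependent cytokines, 20 were measured and none passed, with 2 at an unadjusted p under 0.05. Their median log2 ratio was -0.03. Il2rb, the beta chain of the IL-2 and IL-15 receptors, had ratios of 0.54 and 1.08 (mean 0.81 ± 0.39, SD, n = 2; adjusted p = 0.674). Il2rg, the common gamma chain that Jak3 binds, had 0.31 and 0.34. Il10ra, the ligand-binding chain of the IL-10 receptor, had 1.19 and 0.59. Il6ra, the IL-6 receptor alpha chain, was the one named receptor below 0, at -0.64 and -1.18 (mean -0.91 ± 0.39, SD, n = 2; adjusted p = 0.580). Among 22 cytokine ligands only Ifng, which encodes interferon-gamma, was measured, and it did not pass.

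Of 23 negative regulators, 15 were measured and none passed, also at an unadjusted p under 0.05, with a median ratio of 0.11. Cish, a feedback inhibitor that STAT5 induces, had ratios of 0.15 and 0.22. The adaptor Sh2b3, which restrains Jak2 signalling, had 0.07 and 0.16. The SUMO ligases Pias2 and Pias4, which bind STATs, had 1.06 and 0.13 (Pias2) and -0.40 and -0.16 (Pias4). The knockout signal of Pias4 was dim on array 2. Of 18 other components, 12 were measured and none passed, with 2 at an unadjusted p under 0.05 and a median of 0.30. Stam, an adaptor that binds JAKs, had 2.52 and 0.24, and the acetyltransferase Crebbp, a STAT coactivator, had 2.55 and 0.18. In both the size came from array 1, where the wild type signal was not well above background. Nmi, a STAT-binding protein, had 0.47 and 0.15, and the anchoring protein gene Akap8l had 0.37 and 0.30.

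Of 46 genes known as STAT targets in lymphocytes, 34 were measured, 2 rose and none fell, which is 5.88% of the list against 1.49% of all genes. The list was chosen with earlier results of these data known, so these shares are a description and not a test. Another 5 of the list had an unadjusted p under 0.05 without passing, and the median ratio was 0.52. Bcl6, a transcriptional repressor, had ratios of 2.35 and 1.05 (mean 1.70 ± 0.92, SD, n = 2), 3.25-fold higher in the knockout (limma, adjusted p = 0.043). Its wild type signal on array 1 was dim, so the size on that array is uncertain. Id2, an inhibitor of E-protein transcription factors, had 2.29 and 1.20 (mean 1.75 ± 0.77, SD, n = 2), 3.36-fold higher (limma, adjusted p = 0.035), and a second probe gave 1.81 and 1.11. Both genes were higher on both arrays. Neither passed with the scanner's own log ratio (adjusted p 0.633 for both), with ratios scaled to the same spread (0.385 for Bcl6 and 0.357 for Id2) or without a dim filter (0.457 for both). Bcl6 also lost its call without background correction (0.078), with normexp offset 0 (0.053) and with median centring (0.054), and the stricter filter left it out. Il18r1, a chain of the IL-18 receptor, had 1.85 and 1.24 without passing (adjusted p = 0.091).

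**Figure D5:**
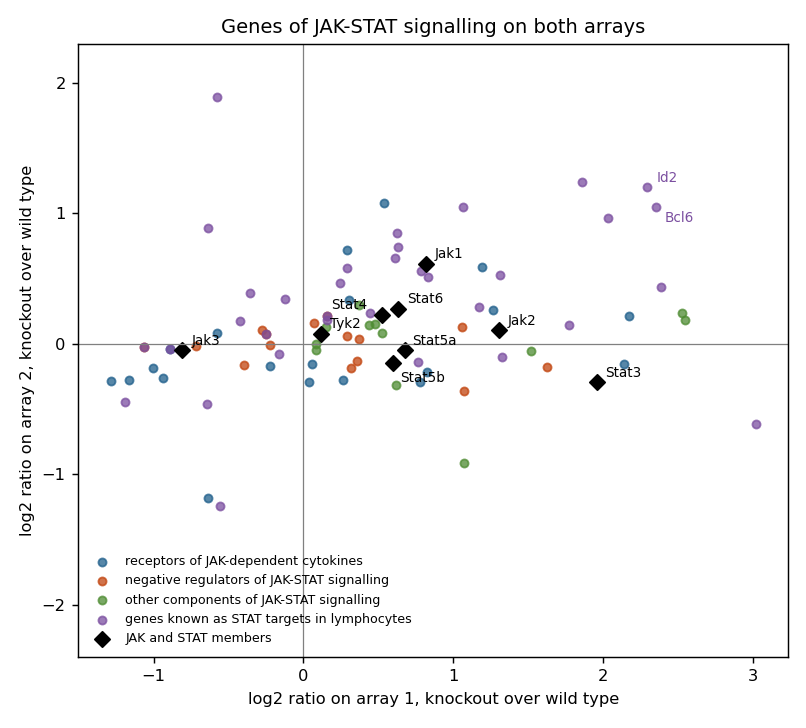
Log2 ratio of knockout over wild type on array 1 (x axis) and array 2 (y axis) for the measured genes of 4 JAK-STAT lists (coloured points) and the 9 members (black diamonds). Bcl6 and Id2, labelled, were the genes of these lists past the test, and the members spread along array 1 from -0.81 to 1.95 while staying between -0.29 and 0.62 on array 2.

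Genes listed as markers of NK or myeloid cells differed between the genotypes beside these values. Of 10 natural killer (NK) cell markers, 3 rose and none fell, against 1.24% of all genes called higher, and 9 were above 0 on both arrays, against 30.9% of all genes. The other 7 did not pass, among them Ncr1 (-0.20 and 0.86) and Klra8 (0.02 and 0.33). Klrb1c, an NK receptor gene, had ratios of 2.02 and 4.12 (adjusted p = 6.2e-07), with a dim wild type signal on array 1. The signalling adaptor Tyrobp had 1.52 and 3.94 (adjusted p = 2.9e-05). The adaptor Fcer1g had ratios of 3.95 and 5.58 (limma, adjusted p = 5.2e-18). Its wild type signal was dim on both arrays, so the sizes are uncertain, and it was measured through its knockout signal alone. A second Fcer1g probe had ratios of 1.45 and 4.14, also with dim wild type signals. Summed signals of the NK list were 222926 and 445802 in the knockout samples and 39661 and 69665 in the wild type samples.

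Of 13 measured myeloid markers, 6 passed as higher in the knockout and none as lower, against 1.24% of all genes called higher. One of them, the lysozyme gene Lyz2, named here after its values were seen, had ratios of 4.03 and -0.38 with a dim wild type signal on array 1, so no direction can be given for it. The others included the complement gene C1qc (at least 4.37-fold higher, adjusted p = 2.8e-07) and the macrophage receptor gene Adgre1 (at least 3.70-fold higher, adjusted p = 6.6e-10). The growth factor receptor gene Csf1r was at least 1.93-fold higher (adjusted p = 7.3e-06). Wild type signals of these 3 genes were dim on both arrays. In the knockout 13 and 12 of the 13 were well above background on arrays 1 and 2, against 2 and 6 in wild type. Genes dim in wild type on both arrays, such as these 3, were measured only because their knockout signal was bright. The detection counts and the share called higher are therefore partly set by the filter and do not support a difference. Their summed signals were 48610 and 83165 in the knockout samples and 13452 and 26130 in the wild type samples. These sums hold the dye difference. Those of the alpha beta T and CD8 list were 1089284 and 1031119 in the knockout samples and 208713 and 284578 in the wild type samples. Their relative gap was wider than that of the myeloid list and narrower than that of the NK list on each array. Most wild type myeloid signals were dim, so the myeloid sums also hold background and do not give the size of a difference. No NK or myeloid call is left with the scanner's log ratio, with ratios scaled to the same spread or without a dim filter, where no gene passed at all. Whether other cells or the sorted T cells themselves carried these transcripts was not tested. Whether cells bearing these markers had a part in the values of Bcl6, Id2 or the members was not tested either.

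None of the 14 alpha beta T and CD8 markers passed, with a median ratio of 0.48. Cd8b1, the CD8 beta chain, had 1.11 and 0.93 (-0.14 and 0.03 with a second probe). Cd5, which tempers antigen receptor signals, had -0.69 and -1.80. The costimulatory receptor Cd28 had 2.16 and 0.68 without passing (limma, adjusted p = 0.153), with a wild type signal that was dim on both arrays. The 2 measured CD4 T cell markers, Cd4 and Cd40lg, were below 0 on both arrays without passing, at -0.65 and -0.21, and -0.39 and -0.08. None of 5 measured B cell markers passed: Ms4a1 had 1.28 and 0.38, Blnk had 2.23 and 0.59, and Cd22 had -0.71 and -0.56. The 1 measured erythroid marker, the globin gene Hba-a1, had 2.56 and 0.30. The wild type signals of Ms4a1, Blnk and Hba-a1 were dim on array 1. Knockout signals of Cd4, Cd40lg and Cd22 were dim on array 2, at 2300, 2187 and 2412, where negative controls had a median of 1865.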

How the data were processed

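Per the labels' protocols, Trizol and columns were used to extract total RNA, which was amplified and labelled with Cy5 or Cy3. The submitters' processing notes name Agilent Feature Extraction 9.5.3.1 for the scans. The deposited files hold mean spot signals and local backgrounds as linear intensity values without normalisation, per the file headers, and log10 ratios of Cy5 over Cy3 from the scanner software. A deposited table of log10 ratios matched the latter to within 0.005, with column medians of 0 and 0. Both arrays lay on 1 slide, so no batch was tested.

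Log2 ratios were computed here from the deposited intensities with limma 3.58.1 in R 4.3.3: normexp (offset 50), loess within arrays, flagged and control spots left out, spots of a probe averaged. Probes entered the test when 1 genotype's channel was well above background on each array, and a gene took the value of its brightest such probe. Median local backgrounds were 45 and 51.5 (knockout) and 35 and 37 (wild type), far below the negative controls, whose array 2 medians were 1865 (knockout) and 1120 (wild type). Of 41174 probes, 24375 were named by accession, 6301 by current and 2426 by older symbol, and 8072 by the design. Probe positions come from the array design, on mm8, and gene models of that build were not used here. No probe or protein sequence was used.

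The test was lmFit with eBayes on the mean of both arrays, two-sided and adjusted over 9273 genes at 0.05. The prior degrees of freedom were infinite, so the error is the same for every gene. The p-values rest on the spread between these 2 arrays pooled over all genes. A gene's own spread between the arrays does not set its p-value. The fit was run on simulated ratios with the same noise on both arrays, unlike these data, so that run checks the code and not the p-values. "At least N-fold" sets the bright genotype's mean against a floor on each array, which is the dim probe's own signal or the lowest signal of any probe well above background, whichever is higher. It uses channel values after loess and Aquantile and is open to dye bias. Members and lists were chosen with earlier results of these data known, so the called share of a list beside that of all genes is a description and not a test. All members were named, and from each pathway list up to 4 genes (markers up to 3), first those past the threshold by size, then those of like sign on both arrays by the smaller absolute ratio. One gene that this rule picked is not reported here. Alternatives changed the background correction, normalisation, dim filter, probe choice and arrays.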

Additional observations from a re-analysis of the deposited data

How the results depend on the processing

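No member passed the test under any of the 9 alternatives: the lowest adjusted p was 0.143, for Jak1 with median centring. Not all of these could have given a call. With the scanner's log ratio, with ratios scaled to the same spread and without a dim filter no gene passed at all. Aquantile repeated the reported p-values. Unadjusted p values under 0.05 appeared for 3 members with median centring and for 1 member each without background correction, with ratios scaled to the same spread and without a dim filter. Among all genes, 1687 of 9273 had such a p with median centring and 1017 of 9273 without background correction. With scaled ratios 902 of 9273 did, and without a dim filter 2478 of 27595. Aquantile, the stricter filter and no dim filter leave the members' ratios as reported, so only the other 6 could move them. Among these 6, the mean of Jak3 alone changed sign: it turned to 0.30 with median centring, which moved the median gene by 0.65 and the members' median to 1.21. On their own, probe 3 of Jak1 gave -1.17 and probe 2 of Jak3 gave 0.22. The members' median ran between 0.08 and 0.63 with 1 array left out, where no test is possible and so no counts were made.

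Across all genes, 115 were higher and 23 lower. The counts were 27 and 8 without background correction, 63 and 1 with median centring, and 25 and 14 among genes well above background in both genotypes. They were 0 and 0 with the scanner's log ratio (574 unadjusted), with ratios scaled to the same spread (902) and without a dim filter (2478). STAT targets passing numbered 1 (Id2, with Bcl6 lost) without background correction, with normexp offset 0, with median centring and with the stricter filter, and 0 in those 3 settings without any call. The causes were not tested. Receptors, regulators, other components and ligands had 0 calls throughout. The test on ratios within each array is itself a comparison of paired samples, and no replicate block could be added because the ratios form 1 group.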
